A study of Mus musculus with 6 samples.

Results

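The genes described are those of the mitochondrial ribosome whose names start with Mrpl, for the large subunit, or Mrps, for the small subunit. A gene was a member if a probe set carried its symbol alone and its brightest probe set had a mean over the 6 arrays at or above the 40th percentile of all probe sets. There were 77 such genes of 13632 genes tested, 48 of the large and 29 of the small subunit by name. All 77 symbols found on probe sets of 1 gene passed the filter, so none was left out by it. The filter level was an intensity of 85.7, and the lowest mean of a member was 204.7, so no member lay near it. Of the 78 protein-coding genes with such names in the RefSeq table, the other was Mrpl53, whose probe set also carried Ccdc142. That shared probe set read 675, 644 and 609 in heterozygous against 615, 651 and 651.1 in knockout cells.

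The arrays came from cardiomyocytes of mouse embryos at E12.5, 3 arrays from Yap heterozygous (Yap HET) and 3 from Yap knockout (Yap KO) embryos, each described as a biological replicate. The embryos came from crosses of the strains TNTCre, Yap flox and R26 mTmG, in which Cre acts in cells that use the cardiac troponin T promoter and turns them from red to green. Cells of both groups therefore carried Cre and the reporter, and the control cells kept 1 working copy of Yap. No wild type group was analysed here. Single hearts were digested with enzymes and the green cells were sorted by flow cytometry. The sources used here do not say whether hearts were pooled for an array or which embryos were littermates.

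The mitochondrial ribosome translates the few messages encoded by the mitochondrial genome, all of which make subunits of the respiratory chain and of ATP synthase. Its proteins are made from nuclear genes in the cytosol and imported, and some of them are particular to mitochondria while others have counterparts in bacteria. The heart depends on them: mutations of human MRPL3 and MRPL44, for example, cause cardiomyopathy in infancy. The large subunit holds the peptidyl transferase centre and the exit tunnel, and the small subunit holds the decoding centre.

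Yap1, the deleted gene, read 886, 927 and 871 in heterozygous against 103, 84.7 and 86.6 in knockout cells, a log2 change of -3.29 ± 0.08 (SE), so the labels and the targeted gene matched. The median over all probe sets lay between 128.1 and 140 on the 6 arrays, and log2 values of 2 arrays correlated over genes, which are not independent replicates, with r of 0.992 to 0.996 for arrays of 1 group and 0.984 to 0.991 for arrays of different groups. Of the 10 cardiomyocyte markers, such as Tnnt2 and Myh6, 0 were called with limma, with 2 lower at an unadjusted p under 0.05, and their summed intensity was 68217 to 68798 on Yap HET and 66328 to 68435 on Yap KO arrays. Markers of other cells moved between the groups, and their part in the results on the ribosomal genes was not tested. Of 6 mesenchymal markers, Pdgfra, Pdgfrb and Postn rose, and the summed intensity went from 3728 to 3810.4 on Yap HET to 4676 to 5977 on Yap KO arrays. Of 6 endothelial markers, Kdr and Nfatc1 rose, with sums of 960.2 to 1046 and 1295 to 1389. The 5 epicardial markers summed to 2788 to 3249.7 and 1882 to 2699 and the 3 smooth muscle markers to 9062 to 9656 and 7414 to 8852, with 0 called with limma, although 3 and 1 of them were down at its unadjusted p under 0.05. The 5 macrophage markers summed to 888 to 959 and 603 to 822. Adgre1 and C1qa lay under the filter level, and of the 3 tested 0 were called with limma, but all 3 were lower at an unadjusted p under 0.05, with groups that did not overlap. Of 3 neural markers measured, 2 were tested and 0 called, with 0 at an unadjusted p under 0.05. Of the erythroid markers, Hbb-y, an embryonic haemoglobin gene, read 232, 27.1 and 19.8 in heterozygous against 1295, 449.9 and 86.3 in knockout cells, and Alas2 lay under the filter level. No marker list was at 0.

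Few of the mitochondrial ribosomal genes passed the test for a difference between Yap KO and Yap HET cardiomyocytes. Of the 77 members, 2 fell (Mrps27 and Mrpl19) and 1 rose (Mrps34), 3.90% against 9.93% of all genes tested (limma, Benjamini-Hochberg adjusted p under 0.05 over 13632 genes). By direction, 4.76% of all genes were called lower and 5.16% higher. In all, 47 members had a negative and 30 a positive log2 change, which is Yap KO minus Yap HET throughout. At an unadjusted limma p under 0.05, 11 of the 77 members were lower, a share near the 14.4% of all genes. Only 3 of the 77 were higher, a share under the 13.9% of all genes. The median log2 change of the members was -0.026, beside -0.017 for all genes tested, and the quartiles were -0.090 and 0.054 for members and -0.109 and 0.082 for all genes. The changes ran from -0.33 to 0.24. A log2 change over 0.2 in size was seen in 7 of the 77 members, or 9.09%, beside 18.6% of all genes tested.

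These arrays bound the size of most of the differences. For 66 of 77 members, 85.7%, the whole 95% interval of the log2 change, not adjusted for the number of genes, lay between -0.3 and 0.3. The same held for 62.9% of all genes tested. The median half-width of the interval was 0.14 for members and 0.15 for all genes, and the SD among arrays of 1 group had a median of 0.070 and 0.080 on the log2 scale. The 3 values of Yap KO did not overlap the 3 values of Yap HET for 18 members, or 23.4%, beside 33.9% of all genes. Of these 18, 13 were lower and 5 higher, where all genes gave 17.2% lower and 16.7% higher. The 13 lower members of 77 are a share near that of all genes, and the 5 higher ones a smaller share. By subunit the groups lay apart for 16.7% of large and 34.5% of small subunit genes. Brightness depends on the probes, so the intensities of different genes are not compared.

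**Figure D1:**
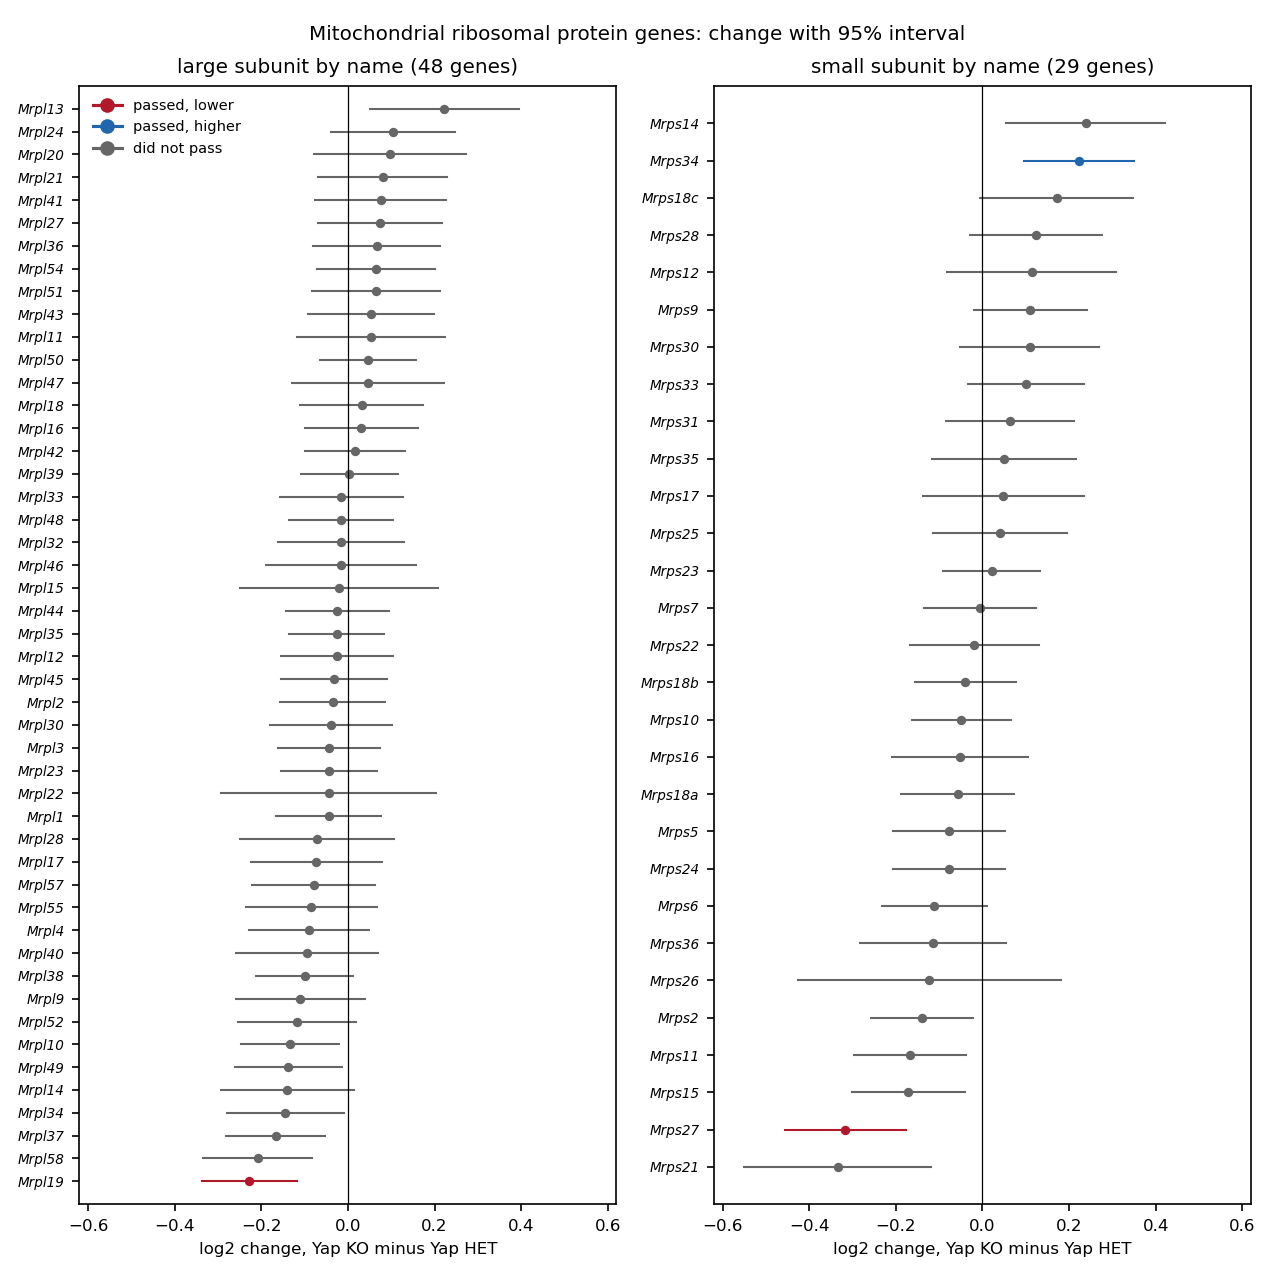
Log2 change, Yap KO minus Yap HET, of each of the 48 large subunit genes (left) and 29 small subunit genes (right), ordered by change, with limma's 95% interval as the bar, unadjusted. Mrpl19 and Mrps27 passed the test as lower and Mrps34 as higher, and most points lie between -0.2 and 0.2.

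Mrps27, a small subunit protein found in mitochondria but not in bacteria and containing pentatricopeptide repeats, had the lowest p of the members. It read 863, 972 and 893 in heterozygous against 739, 745 and 704 in knockout cells. Every Yap KO value lay below every Yap HET value. The mean was 909.5 ± 56.4 (SD, n = 3) in Yap HET cells and 729.6 ± 22.2 (SD, n = 3) in Yap KO cells, a 1.25-fold lower level (log2 change -0.32 ± 0.06 (SE), limma adjusted p = 0.020, lower in 3 of 3 Yap KO arrays). The call was lost without Yap KO replicate 2 (log2 change -0.33, limma adjusted p = 0.067) and without Yap KO replicate 3 (-0.29, limma adjusted p = 0.069). It was kept without any 1 of the other arrays.

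Mrpl19, the counterpart of a bacterial protein at the interface of the subunits, was the other member that fell. Its values were 1195, 1251 and 1235 in heterozygous against 1056, 1033 and 1054 in knockout cells. The groups did not overlap and the Yap KO values were close together. The mean was 1227 ± 28.7 (SD, n = 3) in Yap HET cells and 1047 ± 12.8 (SD, n = 3) in Yap KO cells, 1.17-fold lower (log2 change -0.23 ± 0.05 (SE), limma adjusted p = 0.026). Mrps34, a mitochondria-specific small subunit protein whose human gene is mutated in a form of Leigh syndrome, rose. It read 427, 431 and 392 in heterozygous against 487, 483 and 488 in knockout cells. All Yap KO values were above all Yap HET values, of which replicate 3 was the lowest. The mean was 417 ± 21.7 (SD, n = 3) in Yap HET cells and 486 ± 2.57 (SD, n = 3) in Yap KO cells, 1.17-fold higher (log2 change 0.22 ± 0.05 (SE), limma adjusted p = 0.042). For Mrpl19 the limma adjusted p was 0.077 and 0.062 without Yap HET replicates 1 and 3, and 0.053, 0.11 and 0.074 without Yap KO replicates 1, 2 and 3, with log2 changes between -0.25 and -0.22. For Mrps34 it was 0.11, 0.086, 0.085, 0.13 and 0.11 without the same arrays, with log2 changes between 0.18 and 0.24. Both calls were kept without Yap HET replicate 2, that of Mrpl19 just under the threshold.

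**Figure D2:**
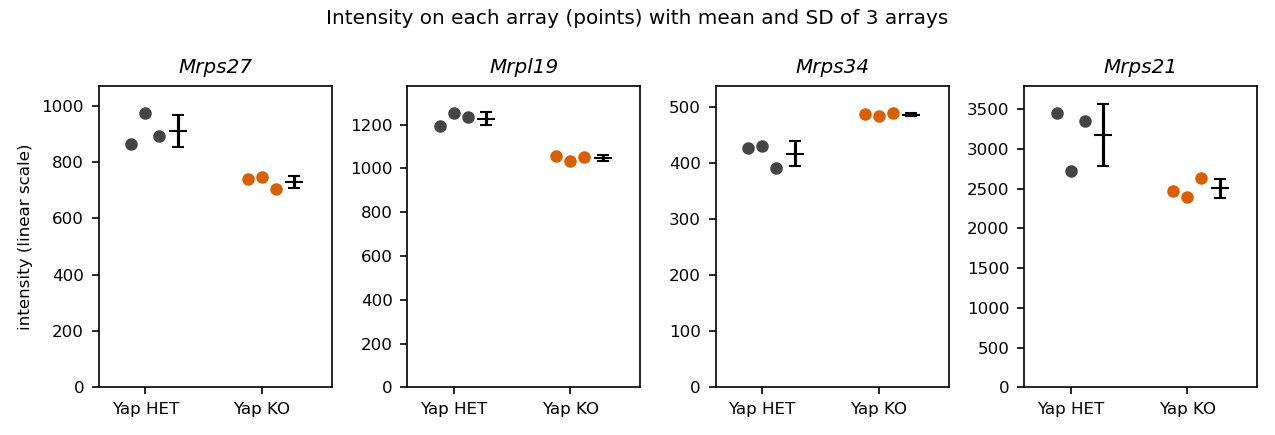
Intensity (linear scale, from 0) of Mrps27, Mrpl19, Mrps34 and Mrps21 on each of the 3 Yap HET and 3 Yap KO arrays, with the mean and SD of 3 arrays beside the points. The groups are apart for all 4 genes, and Yap HET replicate 2 of Mrps21 (2723) lies near the Yap KO values.

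Sequences before the gene starts are shown for the small subunit gene that fell, the small subunit gene with the largest fitted decrease, a large subunit gene among the 4 with the largest fitted decreases, and the member with the largest fitted increase. They are from RefSeq, build GRCm38.p6, from 250 bases before to 50 after the start, 5′ to 3′. Capitals mark CCGGAA, a core that ETS factors such as GABPA bind, or AAGATGGCG, a site of the factor YY1, on either strand.
Mrps27, chr13:99344536-99344835, + strand: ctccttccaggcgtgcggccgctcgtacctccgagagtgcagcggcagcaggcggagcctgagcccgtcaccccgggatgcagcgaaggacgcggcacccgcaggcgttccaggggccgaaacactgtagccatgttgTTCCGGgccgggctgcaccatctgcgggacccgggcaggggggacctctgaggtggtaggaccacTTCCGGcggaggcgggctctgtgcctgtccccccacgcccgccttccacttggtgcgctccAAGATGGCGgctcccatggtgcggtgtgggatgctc
Mrps21, chr3:95871465-95871764, - strand: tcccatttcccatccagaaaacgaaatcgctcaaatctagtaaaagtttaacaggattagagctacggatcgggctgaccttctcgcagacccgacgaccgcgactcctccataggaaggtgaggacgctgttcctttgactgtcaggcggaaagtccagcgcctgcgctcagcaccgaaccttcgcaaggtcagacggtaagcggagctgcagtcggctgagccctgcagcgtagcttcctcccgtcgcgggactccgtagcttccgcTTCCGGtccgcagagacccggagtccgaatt
Mrpl37, chr4:107066817-107067116, - strand: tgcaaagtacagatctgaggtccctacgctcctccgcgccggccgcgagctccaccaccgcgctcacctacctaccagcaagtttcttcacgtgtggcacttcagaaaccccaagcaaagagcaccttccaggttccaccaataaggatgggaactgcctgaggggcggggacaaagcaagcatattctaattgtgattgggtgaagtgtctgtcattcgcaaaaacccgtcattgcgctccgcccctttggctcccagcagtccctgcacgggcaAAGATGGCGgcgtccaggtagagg
Mrps14, chr1:160194965-160195264, + strand: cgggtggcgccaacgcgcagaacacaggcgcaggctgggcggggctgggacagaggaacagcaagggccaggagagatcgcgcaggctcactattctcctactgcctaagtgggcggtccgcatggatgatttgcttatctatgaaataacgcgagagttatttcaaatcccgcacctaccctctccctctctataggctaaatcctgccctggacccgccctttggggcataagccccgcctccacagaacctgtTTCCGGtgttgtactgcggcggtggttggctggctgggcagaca
The window of Mrps27 held both sets of letters, the ETS core at -112 to -107 and at -47 to -42 (on the other strand) and the YY1 site at 15 to 23 counted from the start. Mrps21 and Mrps14, whose fitted changes were of opposite sign, both held the ETS core just after the start, also on the other strand, at 20 to 25 and at 7 to 12. Mrpl37 held the YY1 site alone, at 27 to 35.

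These ETS letters were common in the promoters of the members. A RefSeq window was found for 68 of the 77 members, 74 windows in all. The 9 members without a window include Mrpl19 and Mrps34, so Mrps27 was the only called member searched. CCGGAA or its reverse complement stood in 42 of the 74 windows, 56.8%, beside 24.3% of 13822 windows of tested genes and 14.9% of all 32851 windows. AAGATGGCG stood in 8 windows, 10.8%, beside 2.57% and 1.40%. GCGCATGCG, part of the palindrome bound by the factor NRF1, stood in 7, 9.46%, beside 3.26% and 1.75%. GGAATG, a core bound by TEAD factors, the partners of Yap, stood in 8, 10.8%, beside 12.3% and 14.7%. Both strands were searched, and the ETS and TEAD letters can overlap. Members with the ETS letters had a median log2 change of -0.035 (39 genes) and members without them -0.026 (29 genes). The 8 members with the YY1 letters, Mrps27 the lowest among them, had log2 changes from -0.32 to 0.067 and a median of -0.067. The 60 members without the YY1 letters had a median of -0.025, and the 341 tested genes with them one of -0.022. The 7 members with the NRF1 letters had a median of -0.045, beside -0.026 for the 61 without. The 8 members with the TEAD letters had a median of -0.028, beside -0.031 for the 60 without. These matches describe letters alone.

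Among the large subunit genes, Mrpl58, Mrpl37 and Mrpl34 followed Mrpl19 in the order of decreases and missed the threshold. Mrpl58, a peptidyl-tRNA hydrolase that frees stalled ribosomes and became a ribosomal protein, read 1333, 1425 and 1322 in heterozygous against 1193, 1204 and 1134 in knockout cells. Its log2 change was -0.21 ± 0.05 (limma adjusted p = 0.052), and the groups did not overlap. Mrpl37, a mitochondria-specific protein, read 1748, 1700.0 and 1689.8 in heterozygous against 1552, 1551 and 1475 in knockout cells, with a change of -0.17 ± 0.05 on the log2 scale (limma adjusted p = 0.073). Mrpl34, the counterpart of a small bacterial protein, had 2516, 2696 and 2384 in heterozygous against 2302, 2253 and 2306 in knockout cells and a change of -0.14 ± 0.06 on the log2 scale (limma adjusted p = 0.15). The groups of both genes lay apart, those of Mrpl34 by less than the spread of its Yap HET values.

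On the positive side of the large subunit stood Mrpl13, the counterpart of bacterial protein L13, with 838, 869 and 759 in heterozygous against 888, 969 and 1022 in knockout cells. Its groups did not overlap, yet its log2 change of 0.22 ± 0.07 missed the threshold (limma adjusted p = 0.099). The next were Mrpl24 (0.10 ± 0.06), Mrpl20 (0.10 ± 0.08) and Mrpl21 (0.08 ± 0.06), all counterparts of bacterial proteins, with overlapping groups and limma adjusted p between 0.31 and 0.45. Mrpl42 and Mrpl22 were named for the highest and lowest probe signal of the large subunit, which orders probes and not expression. Mrpl42 read 3206, 3176 and 3013 in heterozygous against 3114, 3172 and 3217 in knockout cells, a log2 change of 0.02 ± 0.05 with an interval of -0.10 to 0.13. Mrpl22, whose bacterial counterpart lines the exit tunnel, had 219, 222 and 186 in heterozygous against 215, 173 and 219 in knockout cells. Its values were scattered in both groups and its interval was -0.29 to 0.20. For Mrpl3 and Mrpl44, examples of cardiomyopathy genes chosen after their values were seen, the log2 changes were -0.04 ± 0.05 and -0.02 ± 0.05. Their intervals were -0.16 to 0.07 and -0.14 to 0.09. They do not stand for every member with such a role.

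Among the small subunit genes, Mrps21 had the largest fitted change of all members. It read 3446, 2723 and 3349 in heterozygous against 2474, 2399 and 2639 in knockout cells. Yap HET replicate 2 was lower than the other Yap HET values, and the log2 change of -0.33 ± 0.09 missed the threshold (limma adjusted p = 0.062). Without Yap HET replicate 2 it was -0.44 (limma adjusted p = 0.010), and no other single array brought Mrps21 past the threshold when left out. The limma adjusted p was 0.19 and 0.15 without Yap HET replicates 1 and 3, and 0.12 and 0.19 without Yap KO replicates 1 and 2. Mrps15 read 2276, 2375 and 2178 in heterozygous against 2058, 1932 and 2074 in knockout cells (-0.17 ± 0.06, limma adjusted p = 0.097). The values of Mrps11 were 982, 966 and 904 in heterozygous against 818, 843 and 877 in knockout cells (-0.17 ± 0.06, limma adjusted p = 0.099). Both are counterparts of bacterial proteins, and in both the groups were apart with a difference too small against the spread to pass.

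The largest positive changes of small subunit genes, with that of Mrps34, were those of Mrps14, Mrps18c and Mrps28, again counterparts of bacterial proteins. Mrps14 read 266, 253 and 226 in heterozygous against 271, 293 and 314 in knockout cells, with a change of 0.24 ± 0.08 on the log2 scale (limma adjusted p = 0.098) and groups that did not overlap. Mrps18c read 1057, 969.8 and 895 in heterozygous against 1029.6, 1089 and 1168 in knockout cells, with a change of 0.17 ± 0.08 on the log2 scale (limma adjusted p = 0.19). Mrps28 had 606, 585 and 584 in heterozygous against 590.3, 659.7 and 687 in knockout cells, with a change of 0.12 ± 0.07 on the log2 scale (limma adjusted p = 0.26). The groups of Mrps18c and Mrps28 overlapped. Mrps12, part of the decoding centre and named for its low probe signal, read 207, 248 and 202 in heterozygous against 234, 248 and 226 in knockout cells, and its interval of -0.08 to 0.31 was wide.

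Not every name gives the place of the protein. Mrps30 and Mrps18a carry small subunit names but their proteins sit in the large subunit, and the protein of Mrps36 belongs to the oxoglutarate dehydrogenase complex. Mrps30 had a log2 change of 0.11 ± 0.07, Mrps18a of -0.06 ± 0.06 and Mrps36 of -0.11 ± 0.07, and none of them passed the test (limma adjusted p = 0.34, 0.55 and 0.34). With the first 2 counted as large subunit genes and Mrps36 left out, 50 large subunit genes had a median log2 change of -0.026 and 26 small subunit genes one of -0.012.

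Members with several probe sets gave a check within the array. There were 8, each with a pair of probe sets. For Mrpl23, Mrpl27, Mrps5, Mrps33 and Mrps36 both probe sets gave log2 changes of the same sign and like size, those of Mrps5 (-0.077 and -0.066) being the farthest apart. For Mrpl41 they were 0.076 and -0.0086, and for Mrpl51 0.065 and -0.073. Mrpl47 differed most, at 0.046 for the brighter probe set (means of 531 and 547) and -0.30 for the dimmer one (184 and 149). The sources used here do not say which transcripts each probe set covers.

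The comparison asked of these genes was large against small subunit. By name, 1 of 48 large subunit genes was called lower and 0 higher (2.08%), and 1 of 29 small subunit genes lower and 1 higher (6.90%), beside 9.93% of all genes. In the large subunit 6 genes were lower and 1 was higher by limma's unadjusted p under 0.05, and in the small subunit 5 and 2. Over all genes 14.4% were lower and 13.9% higher at that p. The mean log2 change was -0.027 over the large and -0.015 over the small subunit genes, a difference of -0.012. Large subunit genes were the more tightly spread, with an SD over genes of 0.089 and 93.8% of intervals within 0.3 of no change, against 0.14 and 72.4% for small subunit genes. These values describe the genes, and the difference between subunits was not tested.

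The same comparison array by array gave no separation. Relative to the median of all tested genes on the same array, the mean log2 intensity of the large subunit genes was 1.24, 1.22 and 1.20 on the Yap HET and 1.14, 1.20 and 1.22 on the Yap KO arrays. For the small subunit genes it was 0.91, 0.83 and 0.84, and 0.78, 0.86 and 0.89. In both subunits Yap KO replicate 1 was the lowest array, and the other Yap KO arrays lay within the range of Yap HET. The large subunit mean exceeded that of the small subunit by 0.33, 0.39 and 0.35 on Yap HET and by 0.36, 0.34 and 0.33 on Yap KO arrays, a mean ± SD of 0.356 ± 0.028 (n = 3) and 0.344 ± 0.014 (n = 3), and these values overlapped. The level of each subunit depends on its probes, so only the differences between arrays bear on the genes.

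Many members shared their low and high arrays. Relative to the array median, 31 of the 77 members were lowest on Yap KO replicate 1 and 0 were highest there, and 20 were lowest on Yap HET replicate 3, while 22 were highest on Yap HET replicate 1 and 23 on Yap KO replicate 3. The order of the arrays depended on this centring. On the scale of the tests, with no centring, 34 members were lowest on Yap HET replicate 3 and 17 on Yap KO replicate 1, where 4 were highest, and 24 were highest on Yap HET replicate 2. Yap KO replicate 1 was also the array with the highest Hbb-y value (1295), and the part of such cells in the result was not tested. Without that array the mean log2 change was -0.018 over large and 0.0020 over small subunit genes, and without Yap HET replicate 3 it was -0.061 and -0.048. In bulk RNA of sorted cells, fewer cells of a type and less RNA per cell cannot be told apart.

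**Figure D3:**
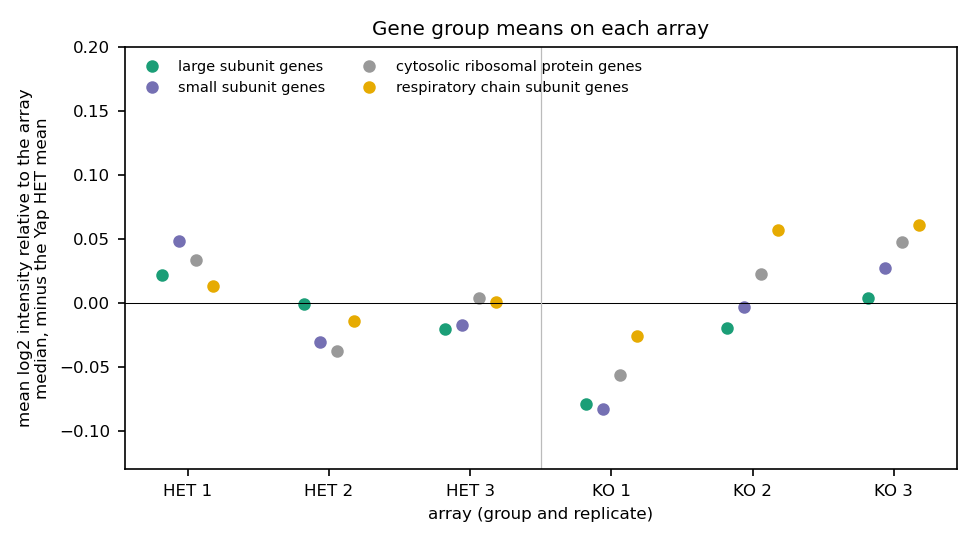
Mean log2 intensity of the large subunit, small subunit, cytosolic ribosomal and respiratory chain genes on each array, relative to the array's median and with the Yap HET mean of each group of genes set to 0. Yap KO replicate 1 is the lowest array for all 4 groups of genes, and the groups of arrays overlap for both subunits.

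By origin, 48 members have a bacterial counterpart or are paralogs of one, 28 are specific to mitochondria, and Mrps36 was put in neither class. Of the first kind 1 was called lower and 0 higher (2.08%), with a median log2 change of -0.039. Of the second 1 was called lower and 1 higher (7.14%), with a median of -0.006. Both shares lie under the 9.93% called over all genes. The 10 mitochondria-specific small subunit genes had the only positive median of the 4 combinations of subunit and origin, 0.045, with 7 of 10 changes positive. Of these 10, 1 was called lower and 1 higher, 20%, above the share over all genes. Subunits here go by name, so the 10 include Mrps30 (0.11), and Mrps18a is among the small subunit genes with a bacterial counterpart. The medians of the other combinations were -0.031 (large, bacterial counterpart), -0.020 (large, mitochondria specific) and -0.050 (small, bacterial counterpart). In the same order, 3.33%, 0% and 0% of their genes were called. The differences between these classes were not tested.

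Many members sit back to back with another gene. Mrpl19 and Mrps34 had no window and could not be searched for this. A gene start on the opposite strand within 1000 bases upstream was found for 26 of the 68 members with a window, 38.2%. The share was 18.2% of 10591 tested protein-coding genes. Of the nearest neighbours of these 26 members 23 were tested. Among them 1 was called higher (Mitd1, next to Mrpl30) and 1 lower (Sars2, next to Mrps12), near the 5.16% and 4.76% of all genes. Of the 23, 11 had a change of the same sign as the member. Mrpl46 and Mrps11 are a pair of members, 42 bases apart, and count in both directions. Sars2, the mitochondrial seryl-tRNA synthetase, whose start lies 147 bases from that of Mrps12, read 698, 745 and 667 in heterozygous against 619, 543 and 557 in knockout cells and fell (log2 change -0.30 ± 0.07, limma adjusted p = 0.038). Mrps12 had a change of opposite sign, 0.11 ± 0.08, that did not pass. Ptcd2, on the other side of the start of Mrps27, changed by 0.14 ± 0.06 on the log2 scale in the fit and did not pass (limma adjusted p = 0.18).

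The rest of the mitochondrial translation system gave 2 calls, Mrrf and Sars2, both lower, and the shares below stand beside 9.93% called over all genes. Of 5 mitoribosome proteins with other names (Dap3, Ptcd3, Chchd1 and Gadd45gip1, and the insertase Oxa1l, which docks at the exit tunnel), 0 passed with limma and 1, Oxa1l, was lower at an unadjusted p under 0.05. Oxa1l read 3459, 3485 and 3377 in heterozygous against 3063, 3037 and 3039.8 in knockout cells, with groups apart and a change of -0.18 ± 0.05 on the log2 scale (limma adjusted p = 0.052). The 27 genes of mitoribosome assembly and rRNA modification gave 0 calls with limma and a median log2 change of -0.035. At limma's unadjusted p under 0.05, 5 were down and 1 up, beside 14.4% and 13.9% of all genes. Of 12 translation factors 1 fell and 0 rose, 8.33%, a share near that of all genes, with a median of -0.019. Their groups did not overlap in 41.7%, beside 33.9% of all genes. The gene that fell was Mrrf, the recycling factor that splits the ribosome after each message, with 2024, 1975 and 1883 in heterozygous against 1567, 1692 and 1722 in knockout cells (log2 change -0.24 ± 0.06, limma adjusted p = 0.041).

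The enzymes that charge mitochondrial tRNAs had the lowest median of the mitochondrial lists. The 21 tested were 18 tRNA synthetases and 3 subunits of the glutamyl-tRNA amidotransferase (Gatb, Gatc and Qrsl1). Of the 18 synthetases 1 fell, Sars2, and 0 rose, 5.56% against 9.93% of all genes. At an unadjusted limma p under 0.05, 7 synthetases were lower and 0 higher, beside 14.4% lower over all genes. Their groups did not overlap in 9, all of them lower (50%, against 17.2% of all genes), and the median log2 change was -0.11. Of the 3 amidotransferase subunits 0 passed with limma, Gatb and Gatc were lower at an unadjusted p under 0.05, and the log2 changes ran from -0.16 to -0.093. Tars2, the threonyl enzyme, had a change of -0.20 ± 0.06 on the log2 scale (limma adjusted p = 0.079), Yars2, the tyrosyl enzyme, of -0.19 ± 0.06 (0.079), and Mars2, the methionyl enzyme, of -0.18 ± 0.05 (0.077). Gars and Kars, which serve both compartments, are among the 18. Of 17 genes that transcribe, process or copy the mitochondrial genome 0 passed with limma, and the median was -0.026. At limma's unadjusted p under 0.05, 2 of the 17 were up and 3 down, beside 13.9% and 14.4% of all genes.

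Of 15 regulators of mitochondrial genes, which include Tfam from the mitochondrial genome list above, Myc rose and 0 fell, 6.67% beside 9.93% of all genes. Their groups did not overlap in 6 of 15, beside 33.9% of all genes, and the median log2 change was -0.056. Myc read 476, 461 and 473 in heterozygous against 594, 563 and 582 in knockout cells, a change of 0.30 ± 0.05 on the log2 scale (limma adjusted p = 0.011) with groups apart. Esrrb, a nuclear receptor of the oestrogen-related family, had the largest fitted change of the list, 0.47 ± 0.13 on the log2 scale, and missed the threshold (limma adjusted p = 0.056). It read 219, 305 and 239 in heterozygous against 376, 362 and 311 in knockout cells, higher in every knockout value. Ppargc1a, which encodes the coactivator PGC-1α, had 2596, 2695 and 2624 in heterozygous against 2527, 2312 and 2235 in knockout cells, a change of -0.16 ± 0.06 on the log2 scale (limma adjusted p = 0.12). Ppargc1b (-0.27 ± 0.09) and Pprc1 (-0.20 ± 0.07), of the same family, also did not pass (limma adjusted p = 0.11 and 0.12). In these 3 genes every knockout value was lower than every heterozygous value. They were the 3 genes of the list lower at an unadjusted limma p under 0.05, and 2, Myc and Esrrb, were higher. Over all genes 14.4% were lower and 13.9% higher at that p. Gabpa, which encodes the ETS factor named above, had a log2 change of -0.02 ± 0.05, Nrf1 of -0.06 ± 0.06 and Yy1 of -0.01 ± 0.07, with limma adjusted p between 0.59 and 0.93.

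Cytosolic ribosomal and respiratory chain genes gave 3 and 2 calls. Of 61 cytosolic ribosomal protein genes chosen by symbol, which include a few relatives such as Rpl7l1, 3 fell (Rpl12, Rps3a1 and Rpl29) and 0 rose, 4.92%, with a median log2 change of 0.004. At an unadjusted limma p under 0.05, 5 of them were higher and 4 lower, beside 13.9% and 14.4% of all genes. Of 80 subunit genes of the respiratory chain and ATP synthase, 2 rose (Cox4i2 and Ndufa1) and 0 fell, 2.50%, with a median of 0.006. Cox4i2, an isoform of a cytochrome oxidase subunit, had 459, 507 and 445 in heterozygous against 912, 943 and 817 in knockout cells (log2 change 0.92 ± 0.08, limma adjusted p = 0.0012), a difference larger than that of any member. At an unadjusted limma p under 0.05, 8 of the 80 respiratory genes were higher and 3 lower, beside the same 13.9% and 14.4% of all genes.

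**Figure D4:**
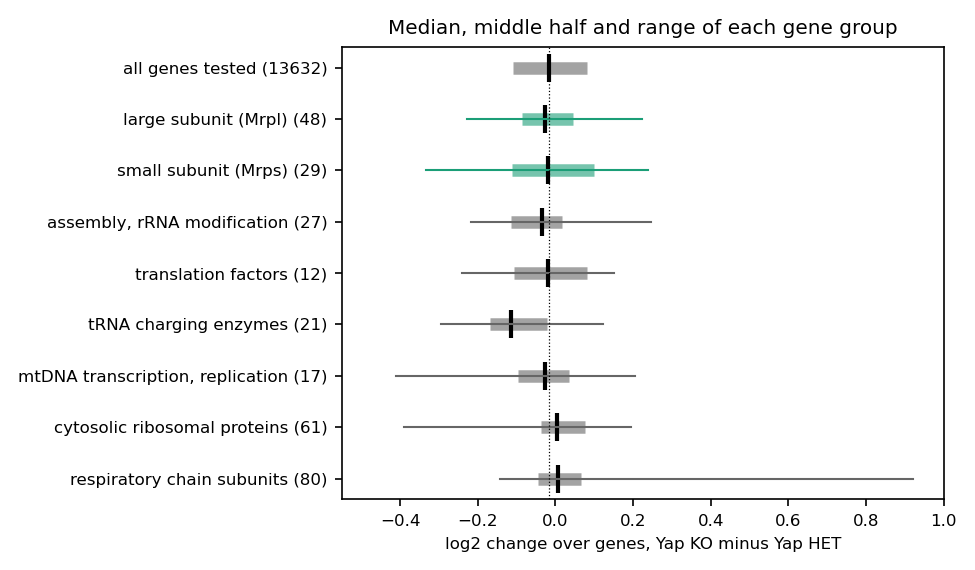
Median (black tick), quartiles (thick bar) and range (thin line) of the log2 change, Yap KO minus Yap HET, over the genes of each list, with the number of genes in brackets and no range drawn for all genes tested. The dotted line is the median of all genes tested, -0.017, and the tRNA charging enzymes (18 synthetases and 3 amidotransferase subunits) have the lowest median, -0.11.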

How the data were processed

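RNA levels were read on 6 Affymetrix arrays, from 0.1 µg of total RNA each, per the labels' protocols. The values deposited by the authors are intensities on a linear scale, from 2e-05 to 15701. The tool was RMA, per the submitters' processing notes, with no version, and the sources used here do not say how its log2 values came to a linear scale. Intensities were therefore put on the log2 scale here, a step the design had allowed for. Symbols came from the platform annotation and were updated through Entrez identifiers (21698 of 21789 probe sets matched the RefSeq table of GRCm38.p6), which changed no member. Each gene was represented by its brightest probe set, and genes under the 40th percentile of probe set means were left out. Probe sets can also bind transcripts of near-identical copies.

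limma 3.58.1 (lmFit, eBayes; R 4.3.3) fitted all 13632 genes, with group as the only term and a threshold of 0.05 on the Benjamini-Hochberg adjusted p. With 3 arrays a group, their number limits the precision. Levels are means ± SD of 3 arrays and changes carry the SE. The fit was tested on simulated data. The members, lists, motifs and named genes were chosen with earlier results of these data known, and the interval bound of 0.3 and the letters of the YY1 and NRF1 motifs replaced a slightly wider bound and longer letters after the values with those were seen. Named were all members past the threshold, the 4 largest positive and negative changes in each subunit, the highest and lowest probe signal in each subunit, Mrps30, Mrps18a and Mrps36, members whose probe sets disagree, and in other lists the called genes. Mrpl3, Mrpl44, the uncalled genes of other lists and head-to-head neighbours lie outside it and were picked with their values in view. No difference between lists was tested. Alternatives were other filters, probe set summaries, normalizations, priors, array weights, an unmoderated model, the replicate number as a block and each array left out.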

Additional observations from a re-analysis of the deposited data

How the results depend on the processing

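In all 17 settings with a fit of their own, the share of members called in either direction was under that of all genes. The settings reuse the same 6 arrays, and which members passed depended on the setting. The gap was small in some, 1.3% beside 1.69% with an unmoderated model and 14.3% beside 16.5% with a trended and robust prior. For lower calls alone it did not hold with that prior (9 of 77 members, 1057 of 13632 genes) or with array weights (16 and 2579). Against 1 higher and 2 lower members and 704 higher and 649 lower genes, no filter gave 0 and 0 members (limma, with 13 at an unadjusted p under 0.05) and 271 and 237 genes. A trended and robust prior gave 2 and 9 members and 1189 and 1057 genes, and array weights 3 and 16 members and 2038 and 2579 genes. An unmoderated model gave 0 and 1 members and 94 and 137 genes. The filter at the 60th percentile, quantile normalization and cyclic loess gave 5, 4 and 4 lower members. The cause of these shifts was not tested. With each array left out, 0 to 1 members were higher and 0 to 3 lower, and 214 to 783 genes higher and 206 to 597 lower. Of members, 0 were called with limma without Yap KO replicate 2 or 3, with 10 and 9 at an unadjusted p under 0.05. The mean change then ran from -0.061 (without Yap HET replicate 3) to -0.00077 over large, from -0.048 to 0.0064 over small subunit genes, and the difference from -0.025 to 0.0030. The difference was 0.0082 with array weights and between -0.018 and -0.0067 in the other settings that kept all arrays. The replicate numbers did not pair the arrays: deviations of same-numbered arrays correlated at -0.076, -0.17 and 0.12. Those of Yap HET and Yap KO arrays with different numbers correlated at -0.23 to 0.28, and a pairing other than by number was not tested. With the replicate block 0 members were higher and 1 lower (Mrps27), and 395 and 303 genes. Yap1 passed in all 17. Over the named genes, 24 results in single settings went past the threshold and 19 fell short of it, and no called change turned its sign.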
